A study of Homo sapiens with 16 samples.

Results

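The genes described here belong to glycolysis and to the transcriptional response to low oxygen. They were taken from the deposited count table by symbol, from a list of 41 names. They make up 41 of the 25370 genes in the table, and all 41 were among the 16004 genes with enough counts to be tested. By role, 4 of them move glucose or lactate across membranes, 11 act in the upper part of glycolysis, and 10 act in its lower part or on the fate of pyruvate. A further 4 are subunits of the hypoxia-inducible factors (HIF) or prolyl hydroxylases that act on them, and 12 are HIF targets outside glycolysis.

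RNA was sequenced from HMC3 cells, an established human line labelled as microglial, after 24 h of treatment in medium without serum or phenol red. The 8 groups, each of 2 libraries, were vehicle, estradiol (E2) at 0.1 nM, ketamine at 400 nM, (2R,6R)-HNK at 400 nM, (2S,6S)-HNK at 400 nM, and each of these 3 drugs at 400 nM given with 0.1 nM E2. Both HNK compounds are hydroxynorketamines, formed from ketamine in the body, and they are enantiomers of each other. The study asked which genes these compounds change in such cells, with and without E2. The sources used here do not say whether the 2 libraries of a group came from separate cultures, so the spread between them may be technical only and the p-values too small.

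The label was checked against marker genes. Of 12 microglial markers, 8 had too few counts to be tested, namely AIF1, ITGAM, CX3CR1, P2RY12, TMEM119, PTPRC, SPI1 and TYROBP, with mean levels between 0.00357 and 0.0312 CPM (counts-per-million). Among those tested, CD68 averaged 20.5 CPM, CSF1R 0.728 and TREM2 0.723. COL1A1, a collagen gene of fibroblasts and pericytes, averaged 4548 CPM. Defining microglial markers are therefore at or near 0, and the cells are called HMC3 cells throughout.

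The libraries held 55300614 to 81646165 counts, and their 10 most abundant genes took 7.55% to 9.08% of a library. Even numbers made up 65.8% of the counts between 1 and 9 but 49.9% of those at 500 or above. A gene was called higher or lower at an adjusted p under 0.05 (Benjamini-Hochberg, over the 16004 genes) in edgeR's quasi-likelihood test. The study's stricter limit, which also asks for a change of at least 1 on the log2 scale, up or down, is given beside it as the fold limit. Log2 fold changes are followed by their standard error (SE) where one is given. With 2 libraries against 2, a permutation test of a gene cannot go below a two-sided p of 0.333, so every call rests on the fitted model. Fewer cells of a kind and less RNA per cell cannot be told apart in these bulk samples.

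Glycolysis splits glucose into pyruvate in the cytosol, with a small yield of ATP. Pyruvate then either enters mitochondria through pyruvate dehydrogenase or is reduced to lactate, which leaves the cell through monocarboxylate transporters. When oxygen is short, prolyl hydroxylases stop marking HIF alpha subunits for destruction. The alpha subunits then pair with ARNT and bind short DNA elements beside genes for glucose carriers, most glycolytic enzymes and lactate dehydrogenase A. Because HIF alpha subunits are controlled largely through protein stability, their mRNA is a poor guide to their protein, which was not measured here. Microglia are known to lean on glycolysis when activated by inflammatory stimuli.

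In vehicle, GAPDH was the most abundant of the genes per length, at 3621 RPKM, the CPM divided by the kilobases of annotated exon. ENO1 followed at 1039 RPKM, TPI1 at 868 and LDHA at 742. CA12 stood lowest at 0.497 RPKM, below EGLN3 at 0.772, ANKRD37 at 1.16, ALDOC at 1.45 and CA9 at 1.49. These levels set housekeeping enzymes of glycolysis far above the carbonic anhydrases CA9 and CA12, which are among the genes most sensitive to low oxygen in many tissues. ALDOC and CA9 rest on few reads, with 122 and 165 counts for CA9 in the vehicle libraries, and 226 and 232 for ALDOC. GAPDH, PGK1, PGAM1, ENO1, LDHA and LDHB have processed pseudogenes, and reads placed at several sites were not counted, so their levels may be understated.

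Together the 41 genes took 3.73% of the counts in each vehicle library. Their share was 3.77% and 3.78% with E2, 4.01% and 3.99% with ketamine, 4.15% and 4.16% with (2R,6R)-HNK, and 3.88% and 3.97% with (2S,6S)-HNK. It reached 4.32% and 4.29% with E2+ketamine, stood at 3.85% and 3.84% with E2+(2R,6R)-HNK, and was lowest at 3.53% and 3.51% with E2+(2S,6S)-HNK. The highest and the lowest share thus both occurred in groups given E2 with a drug. GAPDH was its largest part, with 12142 and 12103 CPM in E2+ketamine, 8666 and 8683 in vehicle and 8050 and 7955 in E2+(2S,6S)-HNK.

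Against vehicle, E2 left 15 of the 41 genes higher and 16 lower, beside 29.9% and 32.7% of all genes tested. Before the correction for GC content described below, its largest rise was in PFKL, the liver type of phosphofructokinase, and its largest fall in P4HA1, a collagen prolyl hydroxylase. None reached the fold limit with E2 by edgeR (0 genes, also 0 at an unadjusted p under 0.05 and 0 by DESeq2), beside 1.81% of all genes. Ketamine left 17 higher and 14 lower, beside 26.8% and 32.5%, led before that correction by a rise of NDRG1, a stress-responsive gene, and a fall of HIF1A. With ketamine the fold limit again took 0 genes by edgeR, 0 at an unadjusted p under 0.05 and 0 by DESeq2, beside 3.56% of all genes.

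(2R,6R)-HNK left 19 genes higher and 15 lower, beside 31.7% and 34.9% of all genes. ALDOC, a brain form of the glycolytic enzyme aldolase, rose most and P4HA1 fell most before the correction. At the fold limit edgeR counted 0 genes, with 0 at an unadjusted p under 0.05 and 0 by DESeq2, beside 3.75% of all genes. (2S,6S)-HNK left 21 higher and 15 lower, beside 32.1% and 35.8%. CA9, which hydrates carbon dioxide at the cell surface, and ALDOC passed the fold limit upward there, 2 genes beside 9.08% of all genes.

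E2+ketamine left 21 genes higher and 16 lower, beside 34.3% and 37.4% of all genes. P4HA1 and LDHB, the heart-type lactate dehydrogenase subunit, passed the fold limit downward, 2 genes beside 11% of all genes. E2+(2R,6R)-HNK left 21 higher and 17 lower, beside 33.4% and 36.3%. CA9 and ALDOC passed the fold limit upward and LDHB downward, 3 genes beside 11.5%. E2+(2S,6S)-HNK left 14 higher and 21 lower, beside 24% and 35.7%, and at the fold limit edgeR counted 0 genes, with 0 at an unadjusted p under 0.05 and 0 by DESeq2, beside 5.85%. DESeq2 placed LDHB below the fold limit with E2+ketamine, leaving 1 gene, and with E2+(2R,6R)-HNK, leaving 2. With the correction for GC content described below, only CA9 and ALDOC with E2+(2R,6R)-HNK passed it.

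Most genes of glycolysis and the hypoxia response that were called therefore changed by less than the fold limit. These genes are far more abundant than most, with a median of the mean levels of 173 CPM against 14.9 CPM over all genes tested. The median log2 fold change of the 41 genes and of all genes tested was -0.032 and -0.003 with E2, 0.037 and -0.020 with ketamine, 0.061 and -0.023 with (2R,6R)-HNK, and 0.11 and -0.031 with (2S,6S)-HNK. It was 0.15 and -0.035 with E2+ketamine, 0.064 and -0.021 with E2+(2R,6R)-HNK, and -0.10 and -0.064 with E2+(2S,6S)-HNK. Upper-quartile scaling in place of TMM raised log2 fold changes over all genes in each treatment. The median shift was 0.062 with E2+ketamine, 0.084 with ketamine and largest, 0.105, with E2+(2S,6S)-HNK, and between the first 2 of these in the other treatments. Values are printed under TMM unless stated, so small changes, above all with E2+(2S,6S)-HNK, depend on the choice of scaling. Upper-quartile scaling gave 16 higher and 15 lower with E2+(2S,6S)-HNK, beside 32% and 27% of all genes, and 23 higher and 11 lower with ketamine, beside 33.7% and 26.9%. It also turned the direction of small called changes, for PGAM1 with ketamine from -0.065 to 0.018, BNIP3 with (2R,6R)-HNK from -0.065 to 0.013, and PKM and ADM with E2+(2R,6R)-HNK from -0.053 to 0.028 and from -0.067 to 0.014. For ALDOA and PGK1 with E2+(2S,6S)-HNK it turned -0.056 to 0.049 and -0.085 to 0.02. The small calls of BNIP3, PKM, ADM and ALDOA were also lost with a library left out, at -0.036 for BNIP3, -0.032 for ADM and -0.048 for ALDOA without vehicle replicate 1, -0.063 for BNIP3 without (2R,6R)-HNK replicate 2, -0.043 for PKM and -0.048 for ADM without E2+(2R,6R)-HNK replicates 1 and 2, and -0.026 for ALDOA without E2+(2S,6S)-HNK replicate 2. The 7 comparisons share the vehicle libraries and are not independent of each other.

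**Figure D1:**
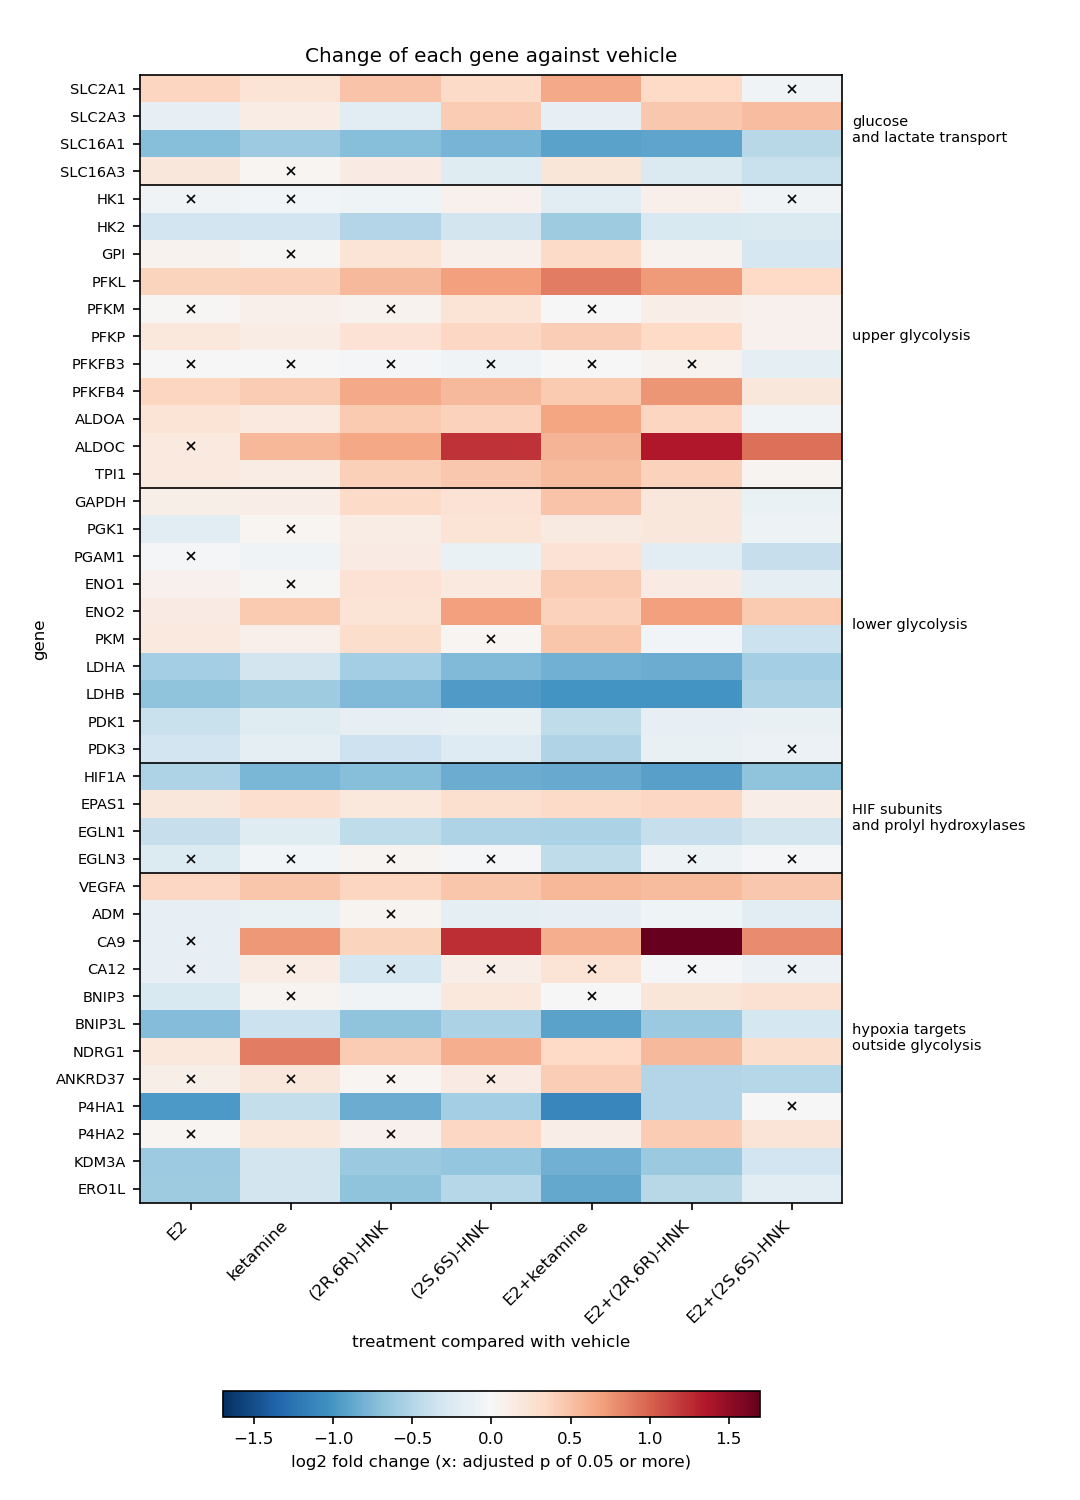
Genes run downward, grouped by role, and each column is a treatment compared with vehicle, coloured by its log2 fold change from the fit over all 16 libraries, with a cross where the adjusted p was 0.05 or more. HIF1A, LDHA, LDHB and SLC16A1 are blue in each column, VEGFA and PFKL are red, and the darkest red is CA9 with E2+(2R,6R)-HNK at 1.70.

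In all 7 comparisons the changes followed the GC content of the exons. Over the 41 genes, Spearman's rho between the log2 fold change and exon GC content was 0.779 with E2, 0.65 with ketamine, 0.648 with (2S,6S)-HNK and 0.797 with (2R,6R)-HNK. It was 0.779 with E2+ketamine, 0.652 with E2+(2R,6R)-HNK and 0.396 with E2+(2S,6S)-HNK. Over 15349 genes tested with a known GC content rho was 0.752, 0.641, 0.649, 0.748, 0.769, 0.661 and 0.442 in the same order. These are descriptions across genes of the same libraries, and genes are not independent replicates. HIF1A, at 38.6% GC, sits at the low end of the 41 genes and SLC16A3, at 66%, at the high end, with a median of 52.5% against 48.6% for all genes tested.

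Each fit was repeated with a correction for GC content and gene length, which removes any real change that follows them as well. With it, 3 genes were higher and 25 lower with E2, beside 15.7% and 22.4% of all genes, 13 and 20 with ketamine, beside 17.7% and 30.8%, and 11 and 18 with (2R,6R)-HNK, beside 20.6% and 25.1%. The corrected counts were 17 and 17 with (2S,6S)-HNK, beside 25.3% and 31.4%, 12 and 17 with E2+ketamine, beside 24.2% and 28.4%, 15 and 18 with E2+(2R,6R)-HNK, beside 25.9% and 33.5%, and 13 and 20 with E2+(2S,6S)-HNK, beside 22.4% and 34%. Of the genes called before it, 12 of 31 kept the same call with E2, 18 of 31 with ketamine, 26 of 36 with (2S,6S)-HNK, 20 of 34 with (2R,6R)-HNK, 22 of 37 with E2+ketamine, 24 of 38 with E2+(2R,6R)-HNK and 24 of 35 with E2+(2S,6S)-HNK. Calls in the opposite direction numbered 11, 9, 6, 6, 6, 8 and 5 in that order. PFKL, PDK1 and GAPDH are among those genes, while LDHA, LDHB and SLC16A1 were lower in each treatment with and without the correction. Calls kept, lost or turned by the correction, here and in the comparisons below, were not counted over all genes tested. Whether such changes of call are particular to the genes described here was therefore not tested. Whether the relation to GC content arose in the cells or in the libraries was not tested.

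**Figure D2:**
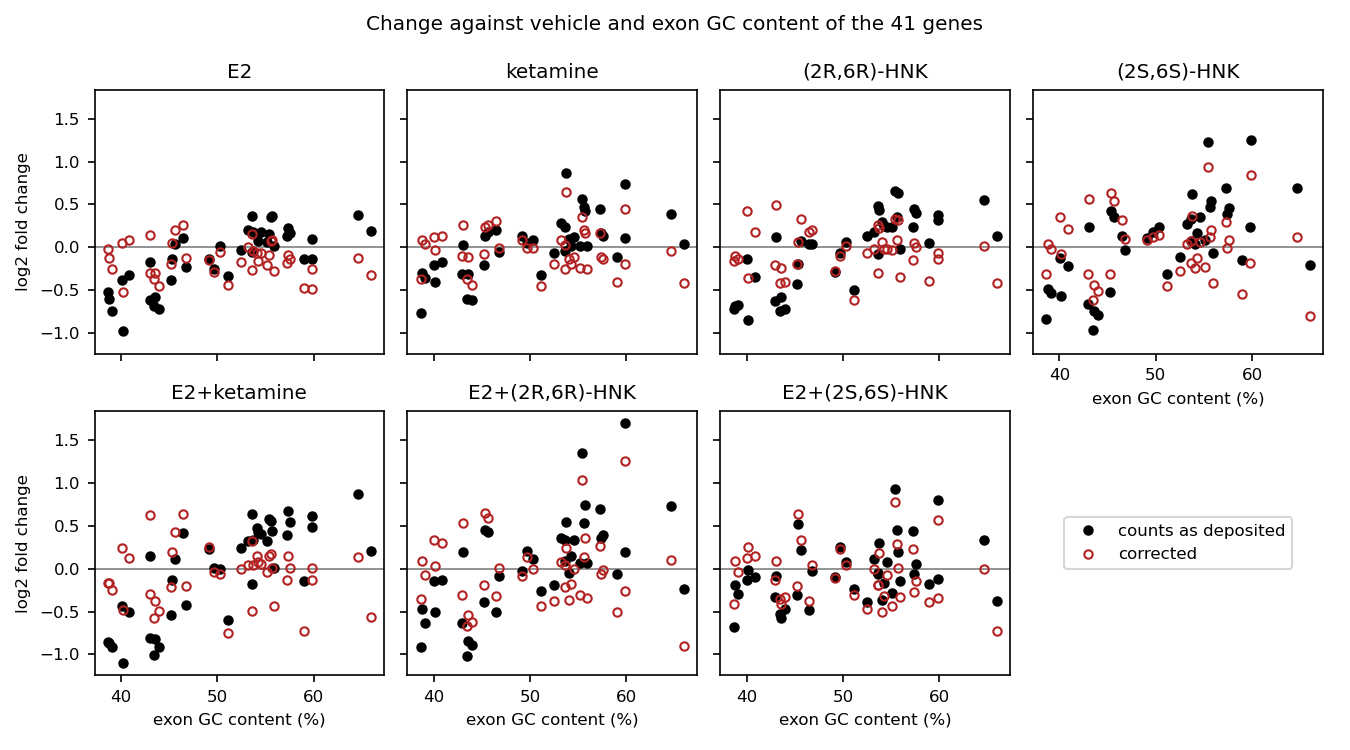
Log2 fold change against vehicle (vertical axis) and exon GC content in percent (horizontal axis) of the 41 genes in each treatment, as filled points from the deposited counts and as open points after the correction for GC content and length. Filled points climb from left to right, with a rho from 0.396 for E2+(2S,6S)-HNK up to 0.797 for (2R,6R)-HNK, and the open points of SLC16A3, the richest in GC, lie below 0 in each panel.

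**Figure D3:**
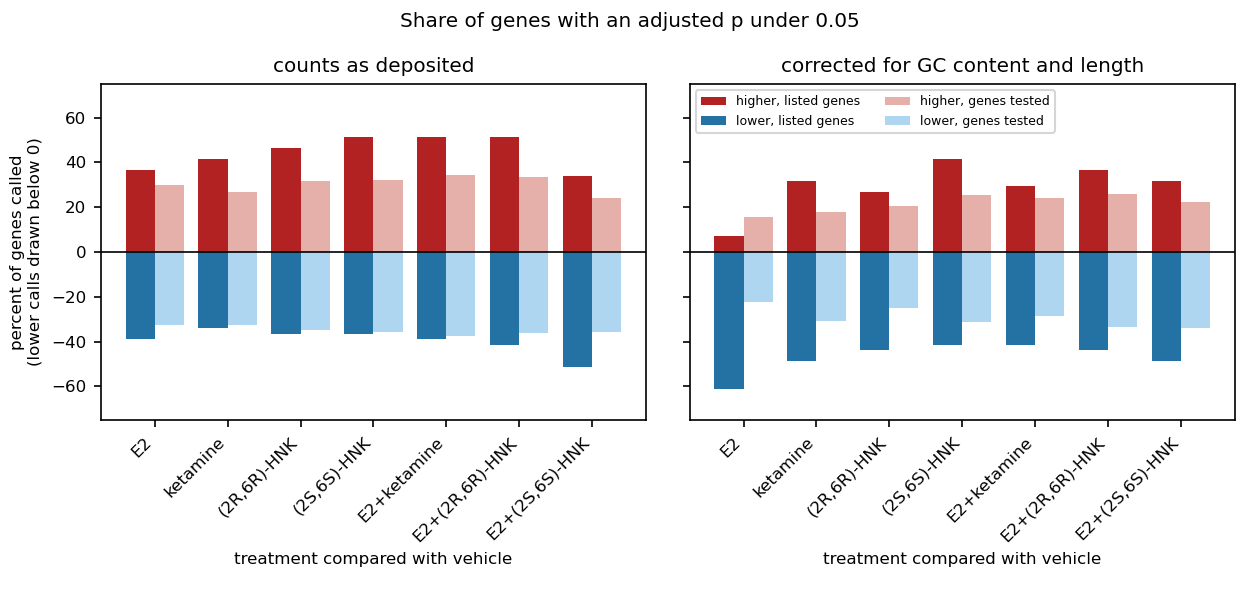
Percent of the 41 genes (dark bars) and of the 16004 genes tested (pale bars) called higher (red, upward) or lower (blue, drawn below 0) against vehicle, from the deposited counts and after the correction. Before the correction the bars for E2 stand for 15 higher and 16 lower genes, and after it for 3 and 25.

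Promoters of the 4 genes past the fold limit in any treatment are shown because HIF acts through DNA. The windows run from 250 bases before to 50 after the transcription start, from RefSeq on GRCh38.p14, written 5′ to 3′ along the gene. Capitals mark the HIF core letters ACGTG or GCGTG, found on either strand, so that CACGT and CACGC are the same cores read on the other strand and the palindrome CACGTG holds overlapping matches. ALDOC lies at chr17:28576846-28577145 on the minus strand, LDHB at chr12:21657793-21658092 on the minus strand, CA9 at chr9:35673678-35673977 on the plus strand and P4HA1 at chr10:73096817-73097116 on the minus strand.
ALDOC: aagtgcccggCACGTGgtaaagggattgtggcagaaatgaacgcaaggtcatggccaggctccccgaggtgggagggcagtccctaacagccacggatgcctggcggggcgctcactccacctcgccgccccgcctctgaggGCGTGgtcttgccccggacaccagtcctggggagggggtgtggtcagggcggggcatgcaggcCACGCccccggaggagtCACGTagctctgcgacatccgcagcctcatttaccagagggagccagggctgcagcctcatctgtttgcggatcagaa
CA9: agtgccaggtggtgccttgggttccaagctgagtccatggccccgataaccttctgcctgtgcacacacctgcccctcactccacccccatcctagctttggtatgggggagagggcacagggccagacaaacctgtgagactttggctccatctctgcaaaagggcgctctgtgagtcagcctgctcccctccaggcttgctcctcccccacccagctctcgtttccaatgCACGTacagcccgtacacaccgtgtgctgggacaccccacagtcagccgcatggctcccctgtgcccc
LDHB: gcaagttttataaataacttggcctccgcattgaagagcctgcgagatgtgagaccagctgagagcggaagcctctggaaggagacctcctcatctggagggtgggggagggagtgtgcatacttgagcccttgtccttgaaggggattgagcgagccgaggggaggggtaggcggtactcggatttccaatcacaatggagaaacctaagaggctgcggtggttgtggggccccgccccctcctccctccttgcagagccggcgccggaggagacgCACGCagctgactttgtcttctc
P4HA1: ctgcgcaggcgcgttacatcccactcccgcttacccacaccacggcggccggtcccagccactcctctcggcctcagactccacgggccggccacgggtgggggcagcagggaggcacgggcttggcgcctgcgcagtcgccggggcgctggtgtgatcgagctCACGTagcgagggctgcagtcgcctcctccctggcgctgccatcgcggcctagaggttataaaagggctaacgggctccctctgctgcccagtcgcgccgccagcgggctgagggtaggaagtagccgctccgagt

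ALDOC holds 3 matches to ACGTG and 2 to GCGTG in its window, CA9 holds 1 to ACGTG, P4HA1 1 to ACGTG and LDHB 1 to GCGTG. CA9 and ALDOC, which rose, and P4HA1 and LDHB, which fell, thus all carry at least 1 core. Of the 41 genes, 36 had a promoter in the table, with 64 starts in all, and either core was in 68.8% of those windows. ACGTG was in 39.1% of them and GCGTG in 43.8%. Of all 35116 starts in the table, 48.4% held either core, 21.4% held ACGTG and 36.5% held GCGTG. Several starts of a gene count separately, some with overlapping windows, and the GC content of the windows was not taken into account. The genes not in the table were SLC2A3, SLC16A1, VEGFA, BNIP3L and NDRG1. A match describes letters only and is not evidence of binding.

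Of the 4 carriers, SLC2A1 encodes the widespread glucose transporter GLUT1 and SLC2A3 the high-affinity transporter GLUT3, while SLC16A1 and SLC16A3 encode the lactate transporters MCT1 and MCT4. E2 left 2 of these higher and 2 lower, and so did (2S,6S)-HNK, (2R,6R)-HNK, E2+(2R,6R)-HNK and E2+ketamine. Ketamine left 2 higher and 1 lower, and E2+(2S,6S)-HNK left 1 higher and 2 lower. Beside these counts stand the shares of all genes given above for each treatment. Before the correction the fall was led in each treatment by SLC16A1, for which the vehicle libraries were the highest of all 16. With the correction the largest fall of SLC16A3, -0.90, went beyond the largest of SLC16A1, -0.62.

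SLC16A1 stood at 90.9 and 93.3 CPM in vehicle, 58.3 and 53.8 with E2, 58.9 and 61.1 with ketamine, 55.2 and 56.6 with (2R,6R)-HNK and 54 and 52.6 with (2S,6S)-HNK. With E2 added it stood at 50.9 and 47.1 CPM for ketamine, 50.9 and 48.4 for (2R,6R)-HNK and 66.5 and 66 for (2S,6S)-HNK. No treated library reached the vehicle level. Its log2 fold change ran from -0.91 ± 0.043 (SE) with E2+ketamine to -0.48 ± 0.041 with E2+(2S,6S)-HNK, and from -0.62 to -0.33 over the treatments with the correction. An antisense gene, SLC16A1-AS1, shares 231 bases of exon with it, and strand was not known to be used in counting.

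SLC2A1 stood at 224 and 222 CPM in vehicle, 283 and 291 with E2, 261 and 263 with ketamine, 309 and 316 with (2R,6R)-HNK and 271 and 290 with (2S,6S)-HNK. Given together with E2, the drugs left it at 339 and 355 CPM for ketamine, 281 and 283 for (2R,6R)-HNK and 215 and 214 for (2S,6S)-HNK. Every treated library except those of E2+(2S,6S)-HNK lay above both vehicle libraries. Its log2 fold change was 0.36 ± 0.028 with E2, 0.23 ± 0.028 with ketamine, 0.33 ± 0.028 with (2S,6S)-HNK and 0.49 ± 0.028 with (2R,6R)-HNK. It was largest at 0.64 ± 0.028 with E2+ketamine, 0.34 ± 0.028 with E2+(2R,6R)-HNK, and not called at -0.055 ± 0.028 with E2+(2S,6S)-HNK, where it became 0.05 under upper-quartile scaling. With the correction GLUT1 RNA kept a rise in 4 treatments, at 0.15, 0.07, 0.26 and 0.33 for E2, (2S,6S)-HNK, (2R,6R)-HNK and E2+ketamine. The corrected values for ketamine and E2+(2R,6R)-HNK were 0.026 and 0.039 and were not called, and E2+(2S,6S)-HNK was lower at -0.19.

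SLC2A3 rose most with (2S,6S)-HNK, E2+(2S,6S)-HNK and E2+(2R,6R)-HNK, by 0.43, 0.53 and 0.46 on the log2 scale, and by 0.63, 0.64 and 0.65 with the correction. SLC2A3 fell with E2, (2R,6R)-HNK and E2+ketamine, at -0.14, -0.20 and -0.13, and 0.048, 0.056 and 0.20 with the correction, of which the last was called higher. The falls with E2 and E2+ketamine were not called by DESeq2, at -0.112 and -0.082, under upper-quartile scaling, at -0.078 and -0.072, or without E2 replicate 2 (-0.102) and E2+ketamine replicate 1 (-0.115). SLC16A3, the exporter MCT4, ranged over its 16 libraries from 664 to 1060 CPM, with log2 fold changes from -0.38 to 0.20. With the correction SLC16A3 was lower in each treatment, from -0.90 to -0.33. It is the most GC-rich of the 41 genes, and 482 bases of its exons overlap CSNK1D on the other strand.

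The upper part of glycolysis primes glucose with phosphate and splits it into triose phosphates, through hexokinases (HK1, HK2), glucose-6-phosphate isomerase (GPI), phosphofructokinases (PFKL, PFKM, PFKP), aldolases (ALDOA, ALDOC) and TPI1. PFKFB3 and PFKFB4 set the level of the activator fructose 2,6-bisphosphate. Of these 11 genes, 6 were higher and 1 lower with E2, beside 29.9% and 32.7% of all genes. With ketamine it was 7 and 1, beside 26.8% and 32.5%. With (2R,6R)-HNK it was 7 and 2, beside 31.7% and 34.9%, and with (2S,6S)-HNK 9 and 1, beside 32.1% and 35.8%. With E2+ketamine 7 were higher and 2 lower, beside 34.3% and 37.4%. The counts were 9 and 1 with E2+(2R,6R)-HNK, beside 33.4% and 36.3%, and 6 and 4 with E2+(2S,6S)-HNK, beside 24% and 35.7%. HK2, the hypoxia-inducible hexokinase, fell in each treatment, from 222 and 221 CPM in vehicle to 145 and 147 with E2+ketamine, a log2 fold change of -0.60 ± 0.029.

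With the correction 8 genes of the upper part were lower with E2 and the other 3 not called. The counts higher and lower became 2 and 8 with ketamine, 3 and 3 with (2R,6R)-HNK and 6 and 4 with (2S,6S)-HNK. They were 3 and 4 with E2+ketamine, 3 and 5 with E2+(2R,6R)-HNK and 1 and 7 with E2+(2S,6S)-HNK. The corrected shares of all genes are those given above. HK2 stayed lower, at -0.75 with E2+ketamine.

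PFKL stood at 441 and 428 CPM in vehicle, 554 and 571 with E2, 564 and 574 with ketamine, 633 and 639 with (2R,6R)-HNK and 686 and 716 with (2S,6S)-HNK. With E2 added it stood at 776 and 813 CPM for ketamine, 714 and 725 for (2R,6R)-HNK and 566 and 527 for (2S,6S)-HNK. The vehicle libraries were the lowest of all 16. Its log2 fold change was 0.37 ± 0.026 with E2 (Benjamini-Hochberg adjusted p = 1.86e-17 in the edgeR quasi-likelihood test, higher in 2 of 2 libraries) and 0.87 ± 0.026 with E2+ketamine. With the correction PFKL fell by 0.12 with E2 and rose by 0.14 with E2+ketamine. Its exons are 64.6% GC.

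ALDOC stood at 3.69 and 3.89 CPM in vehicle, 3.56 and 4.93 with E2, 5.76 and 5.48 with ketamine, 5.99 and 6 with (2R,6R)-HNK and 8.83 and 8.94 with (2S,6S)-HNK. Given together with E2, the drugs left it at 5.56 and 5.8 CPM for ketamine, 9.19 and 10.2 for (2R,6R)-HNK and 7.51 and 6.9 for (2S,6S)-HNK. Only the E2 libraries overlapped vehicle. The log2 fold change was 0.66 ± 0.119 with (2R,6R)-HNK, 1.23 ± 0.116 with (2S,6S)-HNK, 1.36 ± 0.113 with E2+(2R,6R)-HNK and 0.93 ± 0.116 with E2+(2S,6S)-HNK. For E2+(2R,6R)-HNK the edgeR quasi-likelihood test gave a Benjamini-Hochberg adjusted p of 2.74e-15, with 2 of 2 libraries above vehicle. With the correction these values were 0.33, 0.93, 1.03 and 0.78, all still called higher, and E2+ketamine went from 0.58 to 0.15, no longer called. An unnamed gene on the other strand shares 296 bases with ALDOC.

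PFKFB4 was higher in each treatment before the correction, from 0.19 with E2+(2S,6S)-HNK to 0.75 with E2+(2R,6R)-HNK, and with it in 4 treatments, up to 0.36. ALDOA, the main aldolase, ranged from 2394 to 4082 CPM and was highest with E2+ketamine, at a log2 fold change of 0.67 and a corrected one of 0.15. TPI1 and PFKP had their lowest libraries in vehicle, with log2 fold changes up to 0.54 and 0.41, and corrected ones no higher than 0.085 and 0.058. PFKFB3, a gene known to respond to both inflammation and hypoxia, ranged from 88.4 to 104 CPM over all libraries and was called in E2+(2S,6S)-HNK alone, at -0.15, a call lost under upper-quartile scaling, at -0.042. With the correction PFKFB3 was lower in each treatment, from -0.44 to -0.25.

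The lower part of glycolysis turns triose phosphates into pyruvate through GAPDH, PGK1, PGAM1, the enolases ENO1 and ENO2, and pyruvate kinase (PKM). LDHA and LDHB interconvert pyruvate and lactate, and the kinases PDK1 and PDK3 switch off pyruvate dehydrogenase. Of these 10 genes, 4 were higher and 5 lower with E2, 3 and 5 with ketamine, 6 and 4 with (2R,6R)-HNK, and 4 and 5 with (2S,6S)-HNK. With E2+ketamine 6 were higher and 4 lower, with E2+(2R,6R)-HNK 4 and 6, and with E2+(2S,6S)-HNK 1 and 8. With the correction 1 was higher and 7 lower with E2, 4 and 6 with ketamine, 4 and 6 with (2S,6S)-HNK, 4 and 5 with (2R,6R)-HNK, 4 and 4 with E2+ketamine, 4 and 6 with E2+(2R,6R)-HNK and 4 and 6 with E2+(2S,6S)-HNK. Shares of all genes, without and with the correction, are those given above. ENO2, the neuronal enolase, was the gene higher before the correction with E2+(2S,6S)-HNK, at 251 and 245 CPM against 179 and 186 in vehicle, a log2 fold change of 0.45 ± 0.027 and a corrected one of 0.23.

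LDHA, the muscle-type subunit and a classical HIF target, stood at 4422 and 4524 CPM in vehicle, 3020 and 2964 with E2, 3603 and 3577 with ketamine, 2980 and 2999 with (2R,6R)-HNK and 2673 and 2652 with (2S,6S)-HNK. With E2 added it stood at 2562 and 2509 CPM for ketamine, 2501 and 2483 for (2R,6R)-HNK and 2967 and 3045 for (2S,6S)-HNK. The vehicle libraries were the highest of all 16, and all treated groups fell. On the log2 scale the change was -0.58 ± 0.017 with E2, -0.32 ± 0.017 with ketamine, -0.75 ± 0.017 with (2S,6S)-HNK and -0.58 ± 0.017 with (2R,6R)-HNK. It was -0.82 ± 0.017 with E2+ketamine, -0.84 ± 0.017 with E2+(2R,6R)-HNK and -0.57 ± 0.017 with E2+(2S,6S)-HNK. LDHA thus fell least with ketamine alone, where the edgeR quasi-likelihood test gave a Benjamini-Hochberg adjusted p of 1.52e-21 and 2 of 2 libraries lay below vehicle. With the correction the falls were smaller and still called, at -0.30 with E2, -0.12 with ketamine, -0.44 with (2S,6S)-HNK, -0.24 with (2R,6R)-HNK, -0.37 with E2+ketamine, -0.54 with E2+(2R,6R)-HNK and -0.42 with E2+(2S,6S)-HNK.

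LDHB stood at 757 and 771 CPM in vehicle, 482 and 470 with E2, 502 and 500 with ketamine, 455 and 456 with (2R,6R)-HNK and 392 and 393 with (2S,6S)-HNK. Given together with E2, the drugs left it at 388 and 370 CPM for ketamine, 375 and 378 for (2R,6R)-HNK and 521 and 534 for (2S,6S)-HNK. Here too the vehicle libraries were the highest of all 16. The log2 fold change was -0.96 ± 0.023 with (2S,6S)-HNK, -1.01 ± 0.024 with E2+ketamine and -1.02 ± 0.023 with E2+(2R,6R)-HNK, and the corrected values were -0.62, -0.57 and -0.67, called but below the fold limit. In the other 4 treatments it lay between -0.75 with (2R,6R)-HNK and -0.53 with E2+(2S,6S)-HNK, and was still lower with the correction. Both lactate dehydrogenase subunits and the transporter SLC16A1 were thus lower in each treatment. An unnamed gene on the same strand shares 997 bases of exon with LDHB, so its count may include or lose reads. Unnamed genes on the same strand also share 3004 bases with EGLN1, 1639 with ALDOA, 753 with NDRG1, 542 with GPI and 120 with PFKP, and UCN2 shares 298 with PFKFB4.

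PDK1, another HIF target, stood at 78.6 and 79 CPM in vehicle, 63.6 and 57.2 with E2, 67.8 and 68.3 with ketamine, 69.3 and 74 with (2R,6R)-HNK and 75.8 and 69.2 with (2S,6S)-HNK. With E2 added it stood at 60.4 and 56.4 CPM for ketamine, 71.3 and 71.5 for (2R,6R)-HNK and 71 and 72.9 for (2S,6S)-HNK. All treated libraries lay below vehicle, by little in several groups. On the log2 scale the change was -0.38 ± 0.044 with E2, -0.21 ± 0.043 with ketamine, -0.12 ± 0.044 with (2S,6S)-HNK and -0.14 ± 0.044 with (2R,6R)-HNK. It was -0.43 ± 0.045 with E2+ketamine, -0.14 ± 0.043 with E2+(2R,6R)-HNK and -0.13 ± 0.043 with E2+(2S,6S)-HNK. The correction turned PDK1 upward throughout, to 0.052 with E2, which was not called, 0.12 with ketamine, 0.35 with (2S,6S)-HNK, 0.42 with (2R,6R)-HNK, 0.24 with E2+ketamine, 0.34 with E2+(2R,6R)-HNK and 0.13 with E2+(2S,6S)-HNK. The fall with (2R,6R)-HNK also lost its call without replicate 1 of that group, at -0.091, and that with (2S,6S)-HNK without its replicate 2, at -0.056, or without replicate 2 of vehicle, at -0.12. The fall with E2+(2S,6S)-HNK lost its call without replicate 1 of that group, at -0.11. Under upper-quartile scaling and, for some treatments, DESeq2 these small falls were not called either. PDK1-AS1 overlaps 445 bases of its exons on the other strand.

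Among the other genes of the lower part, GAPDH ranged from 7955 to 12142 CPM, ENO1 from 4802 to 7336 and PKM from 3253 to 5928. The highest libraries of these genes were those of E2+ketamine and the lowest those of E2+(2S,6S)-HNK. Log2 fold changes in those groups were 0.48 and -0.12 for GAPDH, 0.43 and -0.16 for ENO1, and 0.47 and -0.37 for PKM. With the correction they were -0.13 and -0.35, 0.073 and -0.31, and 0.15 and -0.50. Under upper-quartile scaling GAPDH with E2+(2S,6S)-HNK went to -0.012 and was not called. GAPDH, often used as a reference gene, was lower in each treatment with the correction. PGK1 behaved in the opposite way, with log2 fold changes from -0.17 to 0.23 and corrected values from 0.086 to 0.63, all higher.

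**Figure D4:**
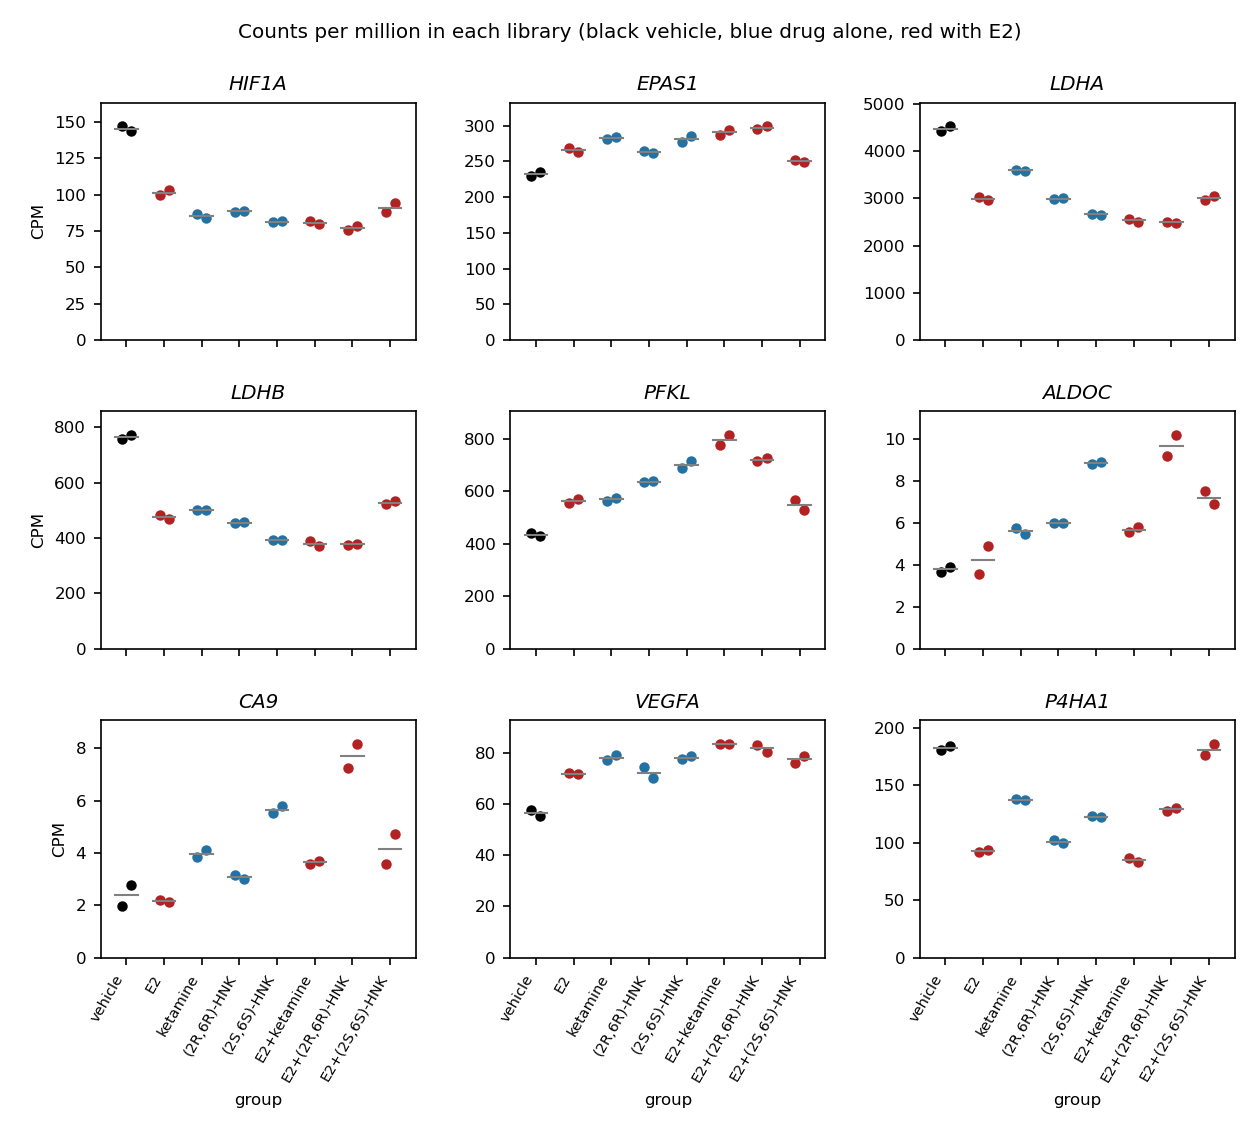
Levels in CPM of 9 genes in each of the 16 libraries (points) with the group means (grey lines), on axes that start at 0. Vehicle libraries are highest for HIF1A, LDHA and LDHB and lowest for EPAS1, PFKL and VEGFA, and CA9 runs from 1.99 in a vehicle library to 8.17 with E2+(2R,6R)-HNK.

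HIF1A and EPAS1 encode the oxygen-regulated subunits HIF-1 alpha and HIF-2 alpha, and EGLN1 and EGLN3 the prolyl hydroxylases PHD2 and PHD3, of which EGLN3 is itself a HIF target. In 6 of the treatments 1 of these 4 genes was higher and 2 were lower, and with E2+ketamine 1 was higher and 3 were lower. The genes higher and lower were EPAS1 on the one side and HIF1A and EGLN1 on the other, joined by EGLN3 with E2+ketamine, at -0.43. With the correction EGLN1 was lower in each treatment and HIF1A in each except E2, EPAS1 was higher with ketamine and E2+(2R,6R)-HNK only, and EGLN3 was not called in any, at -0.20 with E2+ketamine. The EGLN3 libraries lay between 4.22 and 6.26 CPM. For these 4 genes too, the shares of all genes are those given above for each treatment.

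HIF1A stood at 147 and 144 CPM in vehicle, 100 and 103 with E2, 86.5 and 84 with ketamine, 88.3 and 89 with (2R,6R)-HNK and 81.3 and 81.8 with (2S,6S)-HNK. Given together with E2, the drugs left it at 81.7 and 79.6 CPM for ketamine, 76 and 78.4 for (2R,6R)-HNK and 87.8 and 94.2 for (2S,6S)-HNK. The vehicle libraries were the highest of all 16, and no treated library came near them. The log2 fold change was -0.52 ± 0.035 with E2, -0.77 ± 0.034 with ketamine, -0.84 ± 0.035 with (2S,6S)-HNK and -0.72 ± 0.035 with (2R,6R)-HNK. It was -0.85 ± 0.035 with E2+ketamine, -0.92 ± 0.035 with E2+(2R,6R)-HNK and -0.68 ± 0.035 with E2+(2S,6S)-HNK. For ketamine alone HIF1A was the gene of the 41 that fell most before the correction, though not with it, with a Benjamini-Hochberg adjusted p of 5.81e-25 from edgeR's quasi-likelihood test and 2 of 2 libraries below vehicle. With the correction the fall was -0.37 with ketamine, -0.16 with (2R,6R)-HNK, -0.32 with (2S,6S)-HNK, -0.16 with E2+ketamine, -0.35 with E2+(2R,6R)-HNK and -0.41 with E2+(2S,6S)-HNK. With E2 alone the corrected value was -0.026 and was not called. HIF1A lies at chr14:62162231-62214977 on GRCh37, and its exons overlap HIF1A-AS3 by 299 bases and HIF1A-AS1 by 133 bases on the other strand, and an unnamed gene by 148 bases on the same strand.

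EPAS1 stood at 229 and 235 CPM in vehicle, 269 and 263 with E2, 282 and 284 with ketamine, 265 and 262 with (2R,6R)-HNK and 277 and 285 with (2S,6S)-HNK. With E2 added it stood at 287 and 294 CPM for ketamine, 295 and 299 for (2R,6R)-HNK and 252 and 249 for (2S,6S)-HNK. Its vehicle libraries were the lowest of all 16, the opposite of HIF1A. On the log2 scale the change was 0.20 ± 0.026 with E2, 0.29 ± 0.026 with ketamine, 0.28 ± 0.026 with (2S,6S)-HNK and 0.18 ± 0.026 with (2R,6R)-HNK. It was 0.32 ± 0.026 with E2+ketamine, 0.36 ± 0.026 with E2+(2R,6R)-HNK and 0.11 ± 0.026 with E2+(2S,6S)-HNK. With the correction EPAS1 was still higher with ketamine, at 0.09, and with E2+(2R,6R)-HNK, at 0.077. The other corrected values were not called, at 0.003 with E2, -0.021 with (2R,6R)-HNK, 0.037 with (2S,6S)-HNK, 0.047 with E2+ketamine and -0.005 with E2+(2S,6S)-HNK. EGLN1 fell in each treatment, from 95.4 and 96 CPM in vehicle to 69.1 and 64.4 with (2S,6S)-HNK and 64.8 and 67.3 with E2+ketamine, where its log2 fold change was -0.54 ± 0.039 and the corrected one -0.22.

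Of the 12 HIF targets outside glycolysis, 2 were higher and 6 lower with E2, 4 and 5 with ketamine, 3 and 5 with (2R,6R)-HNK, and 5 and 5 with (2S,6S)-HNK. With E2+ketamine 5 were higher and 5 lower, with E2+(2R,6R)-HNK 5 and 6, and with E2+(2S,6S)-HNK 5 and 5. VEGFA, CA9 and NDRG1 account for many of the rises, and BNIP3L, P4HA1, KDM3A and ERO1L for many of the falls. With the correction 1 was higher and 7 lower with E2, 5 and 2 with ketamine, 5 and 3 with (2S,6S)-HNK, 3 and 6 with (2R,6R)-HNK, 3 and 5 with E2+ketamine, 6 and 3 with E2+(2R,6R)-HNK, and 7 and 2 with E2+(2S,6S)-HNK. Shares of all genes higher and lower are those given above for each treatment.

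CA9 stood at 1.99 and 2.77 CPM in vehicle, 2.19 and 2.12 with E2, 3.83 and 4.1 with ketamine, 3.17 and 2.99 with (2R,6R)-HNK and 5.51 and 5.8 with (2S,6S)-HNK. Given together with E2, the drugs left it at 3.58 and 3.7 CPM for ketamine, 7.26 and 8.17 for (2R,6R)-HNK and 3.59 and 4.73 for (2S,6S)-HNK. All drug-treated libraries lay above vehicle, and those of E2 alone lay between the vehicle libraries. The log2 fold change was -0.14 ± 0.164 with E2, which was not called, 0.74 ± 0.146 with ketamine, 1.25 ± 0.146 with (2S,6S)-HNK and 0.38 ± 0.153 with (2R,6R)-HNK. It was 0.61 ± 0.153 with E2+ketamine, 1.70 ± 0.139 with E2+(2R,6R)-HNK and 0.80 ± 0.147 with E2+(2S,6S)-HNK. For E2+(2R,6R)-HNK, the largest rise among the 41 genes in any treatment, the edgeR quasi-likelihood test gave a Benjamini-Hochberg adjusted p of 1.64e-15, with 2 of 2 libraries above vehicle. With the correction CA9 was higher with ketamine, (2S,6S)-HNK, E2+(2S,6S)-HNK and E2+(2R,6R)-HNK, at 0.44, 0.85, 0.57 and 1.26, lower with E2 at -0.48, and not called with (2R,6R)-HNK at -0.073 or E2+ketamine at 0.012. The small rise with (2R,6R)-HNK also lost its call without replicate 1 of that group, at 0.33, or without replicate 1 of vehicle, at 0.16, and the value with E2 became 0.11 without replicate 2 of vehicle. Its exons overlap ARHGEF39 by 571 bases on the other strand.

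VEGFA, which encodes the growth factor that draws in blood vessels, stood at 57.5 and 55.4 CPM in vehicle, 72.1 and 71.7 with E2, 77.2 and 79.1 with ketamine, 74.3 and 70.2 with (2R,6R)-HNK and 77.5 and 78.7 with (2S,6S)-HNK. With E2 added it stood at 83.5 and 83.4 CPM for ketamine, 83.2 and 80.4 for (2R,6R)-HNK and 76.1 and 78.7 for (2S,6S)-HNK. Its vehicle libraries were the lowest of all 16. On the log2 scale the change was 0.35 ± 0.039 with E2, 0.47 ± 0.038 with ketamine, 0.47 ± 0.039 with (2S,6S)-HNK and 0.36 ± 0.039 with (2R,6R)-HNK. It was 0.56 ± 0.039 with E2+ketamine, 0.54 ± 0.038 with E2+(2R,6R)-HNK and 0.45 ± 0.038 with E2+(2S,6S)-HNK. The corrected rises were smaller, at 0.20 with ketamine, 0.12 with (2S,6S)-HNK, 0.084 with (2R,6R)-HNK, 0.17 with E2+ketamine, 0.29 with E2+(2S,6S)-HNK, 0.13 with E2+(2R,6R)-HNK, and 0.067 with E2 alone, which was not called.

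NDRG1 stood at 130 and 127 CPM in vehicle, 234 and 234 with ketamine and 160 and 164 with E2+ketamine. Its log2 fold change with ketamine alone, 0.87 ± 0.03, was the largest rise of the 41 genes in that group, and the corrected value was 0.65. In the other treatments NDRG1 rose by 0.18 with E2 to 0.62 with (2S,6S)-HNK. With the correction it was not called with E2, at -0.043, or E2+ketamine, at 0.045.

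P4HA1, which hydroxylates collagen, stood at 181 and 184 CPM in vehicle, 91.9 and 93.7 with E2, 138 and 137 with ketamine, 102 and 100 with (2R,6R)-HNK and 123 and 122 with (2S,6S)-HNK. Given together with E2, the drugs left it at 86.6 and 83.4 CPM for ketamine, 128 and 130 for (2R,6R)-HNK and 176 and 186 for (2S,6S)-HNK. Every treated group lay below vehicle except E2+(2S,6S)-HNK, whose libraries fell on either side of it. The log2 fold change was -0.97 ± 0.032 with E2, -0.41 ± 0.031 with ketamine, -0.57 ± 0.031 with (2S,6S)-HNK and -0.85 ± 0.032 with (2R,6R)-HNK. It was -1.10 ± 0.032 with E2+ketamine, -0.50 ± 0.031 with E2+(2R,6R)-HNK and -0.011 ± 0.03 with E2+(2S,6S)-HNK, which was not called. With the correction the fall stood at -0.52 with E2, -0.36 with (2R,6R)-HNK, -0.079 with (2S,6S)-HNK and -0.49 with E2+ketamine. Ketamine at -0.033 and E2+(2R,6R)-HNK at 0.028 were then not called, and E2+(2S,6S)-HNK was higher at 0.25. Its sister gene P4HA2 was never called lower, with log2 fold changes from 0.033 to 0.43 and corrected ones from 0.20 to 0.60.

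BNIP3L, which marks mitochondria for removal, KDM3A, a histone demethylase, and ERO1L, an oxidase of the endoplasmic reticulum, had their highest libraries in vehicle. Their log2 fold changes reached -0.91, -0.81 and -0.87 with E2+ketamine, and -0.25, -0.30 and -0.16 with the correction. KDM3A was lower in each treatment in either fit, whereas ERO1L turned upward with the correction in 3 treatments. ADM, which encodes the vasodilator adrenomedullin, lay between 144 and 174 CPM, with log2 fold changes from -0.18 to 0.047 and corrected values from -0.72 to -0.39. CA12 was not called in any of the 7 comparisons, with 2.68 to 4.18 CPM. BNIP3 ranged from 352 to 511 CPM and fell most with E2, at -0.25, and rose most with E2+(2S,6S)-HNK, at 0.25, or -0.29 and 0.23 with the correction. ANKRD37 lay between 1.75 and 3.70 CPM, higher with E2+ketamine at 0.42 and lower with E2+(2R,6R)-HNK at -0.50 and E2+(2S,6S)-HNK at -0.48, of which only the rise was called with the correction, at 0.64. Without a single library ANKRD37 lost these calls, the rise without E2+ketamine replicate 1 (0.32) or vehicle replicate 2 (0.33). The falls were not called without vehicle replicate 1 (-0.41 and -0.38), nor without replicate 2 of E2+(2R,6R)-HNK (-0.43) and of E2+(2S,6S)-HNK (-0.46).

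The 3 drugs were compared in 6 pairs at the same dose and time, 3 without and 3 with E2. The enantiomers (2R,6R)-HNK and (2S,6S)-HNK differed in 32 of the 41 genes, 12 higher and 20 lower with the first, beside 43.5% of all genes tested (21% higher and 22.4% lower). With the correction it was 17 and 19, beside 24.5% and 20.4%. CA9 differed most, by -0.87 ± 0.139 on the log2 scale, then SLC2A3 by -0.62 and ALDOC by -0.57, all lower with (2R,6R)-HNK, and -0.92, -0.58 and -0.60 with the correction. SLC16A3 was higher with (2R,6R)-HNK by 0.35, or 0.38. At the fold limit edgeR counted 0 genes, with 0 at an unadjusted p under 0.05 and 0 by DESeq2, beside 2.53% of all genes. SLC16A1, PDK1 and KDM3A were not told apart, with differences of 0.067 (95% interval -0.021 to 0.16), -0.018 (-0.11 to 0.07) and 0.03 (-0.063 to 0.12). The correction gave called differences for SLC16A1 and KDM3A, at 0.11 and 0.11.

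Ketamine against (2R,6R)-HNK gave 33 genes called, 19 higher and 14 lower with ketamine, beside 45.4% (22.8% and 22.6%), and 18 and 14 with the correction, beside 14.7% and 24.1%. P4HA1 and NDRG1 were higher with ketamine by 0.44 and 0.44, and ALDOA and TPI1 lower at -0.27 and -0.27, with corrected values of 0.33, 0.42, -0.17 and -0.14. CA9 was higher with ketamine by 0.36, or 0.52 with the correction, a call lost by DESeq2 (0.35), without (2R,6R)-HNK replicate 1 (0.41) or 2 (0.32) and without ketamine replicate 1 (0.41) or 2 (0.31). At the fold limit edgeR counted 0 genes, with 0 at an unadjusted p under 0.05 and 0 by DESeq2, beside 0.844%. HIF1A was not told apart, at -0.056 with a 95% interval of -0.13 to 0.015, but was lower with ketamine after the correction, at -0.21.

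Ketamine against (2S,6S)-HNK gave 31 genes called, 13 higher and 18 lower with ketamine, beside 46.1% (22% and 24.2%), and 12 and 15 with the correction, beside 17.6% and 23.7%. ALDOC and CA9 were lower with ketamine, at -0.66 and -0.51, and LDHA and LDHB higher, by 0.43 and 0.35. The corrected values were -0.58, -0.40, 0.32 and 0.25. The fold limit took 0 genes by edgeR, 0 at an unadjusted p under 0.05 and 0 by DESeq2, beside 1.77%. VEGFA differed by 0.002 with a 95% interval of -0.073 to 0.076, and HIF1A by 0.064 with -0.007 to 0.14, or 0.075 and -0.05 with the correction, none called.

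With E2 present, (2R,6R)-HNK and (2S,6S)-HNK differed in 30 genes, 22 higher and 8 lower with (2R,6R)-HNK, beside 54% of all genes (29.1% and 25%), and 18 and 10 with the correction, beside 17.8% and 12.4%, with 7 calls lost and 2 turned. CA9 and PFKFB4 were higher with (2R,6R)-HNK by 0.90 ± 0.127 and 0.55 ± 0.041, and P4HA1 and LDHB lower at -0.49 and -0.49. With the correction these were 0.69, 0.35, -0.22 and -0.31. CA9 was thus lower with (2R,6R)-HNK than with its enantiomer in the absence of E2 and higher in its presence, and whether those differences differ was not tested. At the fold limit edgeR counted 0 genes, with 0 at an unadjusted p under 0.05 and 0 by DESeq2, beside 0.662%. VEGFA was not called, at 0.081 with a 95% interval of 0.007 to 0.15. DESeq2 called it higher with (2R,6R)-HNK, at 0.091, but after the correction it was lower, at -0.16.

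E2+ketamine against E2+(2R,6R)-HNK gave 32 genes called, 12 higher and 20 lower with ketamine, beside 52% of all genes (25.3% and 26.7%). With the correction it was 16 and 17, beside 28.3% and 22.3%. CA9, at 3.58 and 3.7 CPM against 7.26 and 8.17, differed by -1.08 ± 0.132, with a Benjamini-Hochberg adjusted p of 9.1e-10 from edgeR's quasi-likelihood test and 2 of 2 libraries lower, and by -1.25 with the correction. It was the 1 gene past the fold limit, beside 3.09% of all genes. ALDOC was lower with ketamine at -0.77, and ANKRD37 and PKM higher by 0.92 and 0.53, or -0.88, 0.96 and 0.52 with the correction. LDHA and LDHB were not told apart, at 0.025 (95% interval -0.01 to 0.06) and 0.008 (-0.039 to 0.056). With the correction they were called at 0.17 and 0.097, and DESeq2 called LDHA higher with ketamine, at 0.049.

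E2+ketamine against E2+(2S,6S)-HNK gave 36 genes called, 17 higher and 19 lower with ketamine, beside 66.8% of all genes (31.7% and 35%), and 19 and 18 with the correction, beside 30.7% and 25.4%, with 4 calls lost and 6 turned to the opposite direction. P4HA1, at 86.6 and 83.4 CPM against 176 and 186, differed by -1.09 ± 0.032, and by -0.73 with the correction, which is below the fold limit. It was the 1 gene past that limit before the correction, beside 5.62%. The pyruvate kinase PKM, ALDOA and SLC2A1 were higher with ketamine by 0.84, 0.73 and 0.69, or 0.65, 0.42 and 0.51 with the correction. ANKRD37 was higher by 0.89 and, with the correction, by 1.01.

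Whether E2 altered the response to a drug was tested by subtracting the change without E2 from the change with it, which is called the interaction below. For ketamine 24 genes had a called interaction, 19 positive and 5 negative, beside 37.5% of all genes (24.5% positive, 13.1% negative), and at the fold limit edgeR counted 0, with 0 at an unadjusted p under 0.05 and 0 by DESeq2, beside 1.82%. Under upper-quartile scaling the split was 14 positive and 10 negative, beside 17.2% and 19.5% of all genes. With the GC correction it was 19 and 3, beside 24.9% and 11.9%. Under upper-quartile scaling LDHA went from 0.079 to -0.007. Its call was also lost without E2 replicate 2 (0.064), E2+ketamine replicate 1 (0.064) or vehicle replicate 2 (0.062). Before the correction NDRG1 had the most negative value, -0.70 ± 0.042, with 130 and 127 CPM in vehicle, 142 and 147 with E2, 234 and 234 with ketamine and 160 and 164 with both, and a corrected value of -0.56. HIF1A had the most positive, 0.44 ± 0.05, which the correction took to 0.23.

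For (2R,6R)-HNK 34 genes had a called interaction, 20 positive and 14 negative, beside 56.6% of all genes (31.5% positive, 25.2% negative). With the correction 21 were positive and 9 negative, beside 21.7% and 21.9%, with 7 calls lost and 7 turned to the opposite direction. CA9 and P4HA1 passed the fold limit, 2 genes beside 5.68%. CA9 went from 1.99 and 2.77 to 3.17 and 2.99 CPM with (2R,6R)-HNK in the absence of E2, and from 2.19 and 2.12 to 7.26 and 8.17 in its presence. The difference of these effects was 1.46 ± 0.211, with a Benjamini-Hochberg adjusted p of 4.61e-08 from edgeR's quasi-likelihood test, and 1.82 with the correction. P4HA1 went from 181 and 184 to 102 and 100 CPM without E2 and from 91.9 and 93.7 to 128 and 130 with it, an interaction of 1.32 ± 0.045, or 0.91 with the correction, below the fold limit.

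For (2S,6S)-HNK 36 genes had a called interaction, 15 positive and 21 negative, beside 65.1% of all genes (32.9% positive, 32.2% negative). With the correction 16 were positive and 11 negative, beside 19.9% and 20.9%, with 11 calls lost and 4 turned to the opposite direction. P4HA1, LDHB and SLC16A1 passed the fold limit, 3 genes beside 10.7%. P4HA1 fell with E2 alone and with (2S,6S)-HNK alone, yet stood at 176 and 186 CPM with both, an interaction of 1.53 ± 0.045. LDHB and SLC16A1 had interactions of 1.11 ± 0.033 and 1.03 ± 0.061, since each agent alone lowered them and both together did not lower them further. With the correction the values were 0.85, 0.64 and 0.63, still called but below the fold limit. DESeq2 placed P4HA1 and LDHB past it, 2 genes. Before the correction SLC2A1 and PFKL had the most negative values, -0.75 and -0.73, and -0.41 and -0.004 with the correction, the latter not called.

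**Figure D5:**
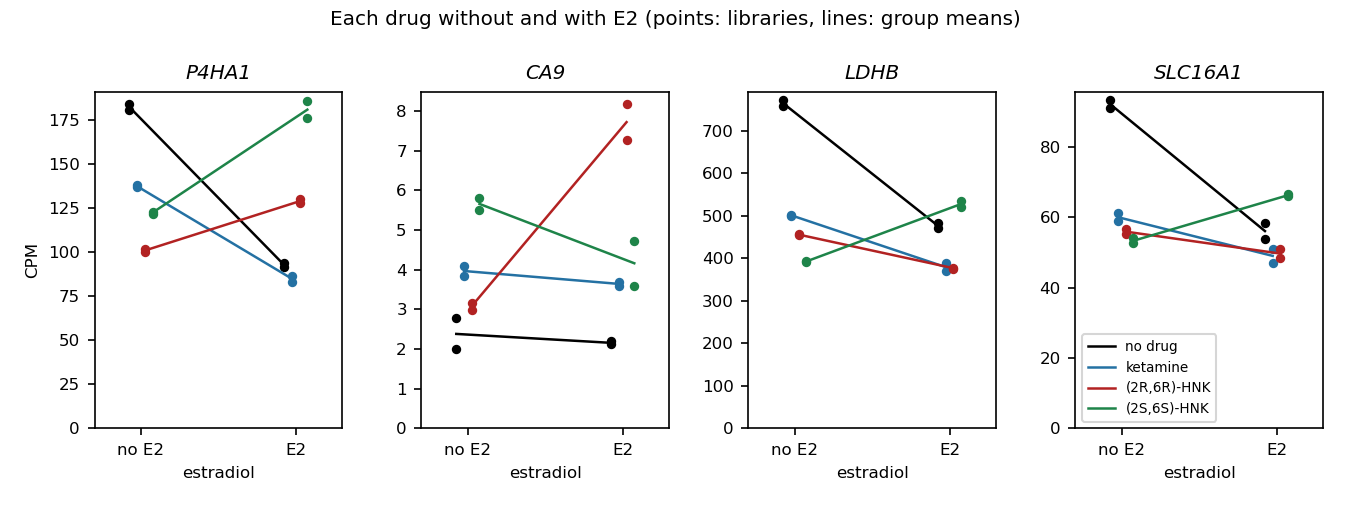
Levels in CPM of P4HA1, CA9, LDHB and SLC16A1 without and with E2, with points for libraries and lines joining group means for no drug and for each drug, on axes that start at 0. With E2, P4HA1 drops in the absence of drug but rises with (2S,6S)-HNK, to 176 and 186 CPM, and CA9 rises with (2R,6R)-HNK, to 7.26 and 8.17 CPM.

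Genes of neighbouring pathways that were not among the 41 were counted from lists. Of 21 other glycolysis genes tested, 8 were higher and 5 lower with E2, and 11 and 8 with E2+(2R,6R)-HNK, beside the shares of all genes given above, or 3 and 3 and 7 and 9 with the correction. SLC2A10, a glucose carrier family member, went from 3.94 and 4.16 CPM in vehicle to 11.3 and 11.1 with E2+(2R,6R)-HNK, a log2 fold change of 1.46 ± 0.099 and 1.32 with the correction. Of 13 genes of the pyruvate dehydrogenase complex and pyruvate import, 3 were higher and 6 lower with E2, and 5 and 8 with E2+(2R,6R)-HNK, or 5 and 3 and 3 and 7 with the correction. DLD, the dihydrolipoamide dehydrogenase shared by that complex and others, stood at 68.3 and 65.7 CPM in vehicle and 26.5 and 26.8 with E2+(2R,6R)-HNK, a log2 fold change of -1.33 ± 0.053 and -0.70 with the correction. PCK2, which makes phosphoenolpyruvate in mitochondria, rose from 51.3 and 49.4 CPM to 126 and 131 with E2+ketamine, by 1.35 ± 0.038, or 0.84 with the correction.

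In the pentose phosphate pathway, which makes NADPH from glucose 6-phosphate, 6 of 8 genes were higher and 2 lower with E2+ketamine, beside 34.3% and 37.4% of all genes, or 5 and 3 with the correction, beside 24.2% and 28.4%. The corrected counts were 5 and 2 with (2R,6R)-HNK, 3 and 3 with E2 and with (2S,6S)-HNK, 3 and 5 with ketamine, 2 and 4 with E2+(2R,6R)-HNK and 2 and 5 with E2+(2S,6S)-HNK. H6PD, its enzyme in the endoplasmic reticulum, rose from 9.63 and 8.93 CPM in vehicle to 32.2 and 30.8 with E2+(2R,6R)-HNK, by 1.76 ± 0.065, and PGLS rose from 20.7 and 18.1 to 47.3 and 46.6 with E2+ketamine, by 1.27 ± 0.061. The corrected values were 1.35 and 0.61. Of 12 glycogen genes, 5 were higher and 6 lower with E2+ketamine, or 4 and 5 with the correction, and there UGP2 and GBE1, enzymes of glycogen synthesis, fell by 1.05 and 1.03 on the log2 scale, or by 0.46 and 0.33 with the correction. PGM2 fell by 1.09 with E2+(2R,6R)-HNK, or by 0.54 with the correction.

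Of 11 other HIF pathway genes, 5 were higher and 3 lower with E2, or 5 and 4 with the correction. In every treatment but E2, more of them were lower than higher before the correction. With E2+ketamine 3 were higher and 6 lower, beside 34.3% and 37.4% of all genes, or 4 and 3 with the correction. CUL2, a scaffold of the ligase that degrades HIF alpha subunits, went from 32.7 and 32.4 CPM in vehicle to 16.4 and 13.7, a log2 fold change of -1.11 ± 0.069 and -0.48 with the correction. Of 35 other hypoxia targets tested, 11 were higher and 15 lower with E2, beside 29.9% and 32.7% of all genes, 17 and 11 with ketamine, beside 26.8% and 32.5%, and 15 and 13 with E2+(2R,6R)-HNK, beside 33.4% and 36.3%. With the correction these were 4 and 12, 14 and 8, and 16 and 10, beside 15.7% and 22.4%, 17.7% and 30.8%, and 25.9% and 33.5%. TFRC, the transferrin receptor, fell from 451 and 467 CPM to 182 and 182 with (2S,6S)-HNK, by 1.33 on the log2 scale, or by 0.96 with the correction, and PLOD2, a collagen lysyl hydroxylase, from 547 and 565 to 247 and 244 with E2+(2R,6R)-HNK, by 1.18, or by 0.51. PPFIA4 rose from 14.4 and 15 CPM to 31.4 and 31.4 with E2+(2R,6R)-HNK, by 1.10 ± 0.06, or 0.62 with the correction.

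Markers of other cell types were summed. The 8 fibroblast and pericyte markers, led by COL1A1, summed to 4752 and 4760 CPM in vehicle, 6223 and 6267 with E2 and 4543 and 4262 with E2+(2S,6S)-HNK, and COL3A1, DCN and LUM were near 0. Among astrocyte markers ALDH1L1 led over all libraries together, but SLC1A3 stood higher in vehicle. Astrocyte markers summed to 7.34 and 6.66 CPM in vehicle, 5.94 and 6.41 with E2 and 11 and 10.5 with E2+(2R,6R)-HNK, with AQP4 at 0. The higher sum there is that of ALDH1L1, at 2.88 and 2.95 CPM in vehicle and 8.42 and 8.13 with E2+(2R,6R)-HNK, while SLC1A3 went from 4 and 3.22 to 2.24 and 2.02. Neuronal markers, nearly all TUBB3, summed to 109 and 108 CPM in vehicle, 142 and 143 with E2+ketamine and 80.2 and 75.5 with E2+(2S,6S)-HNK. Endothelial markers, led by VWF, summed to 2.94 and 2.85 CPM in vehicle, 4.65 and 4.05 with E2 and 2.36 and 2.33 with E2+(2S,6S)-HNK. The part of these differences in the results for GAPDH, LDHA and the other genes was not tested.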

How the data were processed

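The data are counts of uniquely mapped, non-discordant read pairs per gene in 16 libraries, 2 for each of 8 treatments. The authors made these deposited counts from amplified cDNA (Ovation v2) with TopHat2 2.0.14, Bowtie2 2.2.6 and featureCounts 1.4.6 on hg19, per the labels, while the published methods name other versions of TopHat and Bowtie. Strandedness is not given, nor is which library was sequenced in which lane.

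Genes with low counts were removed with filterByExpr, leaving 16004 of 25370, and libraries were scaled by trimmed mean of M values (TMM). One model with a mean for each of 8 groups (8 residual degrees of freedom) was fitted with the quasi-likelihood test of edgeR 4.0.16 in R 4.3.3 (limma 3.58.1), and p-values were adjusted by the Benjamini-Hochberg method. The standard error is the absolute log2 fold change divided by the square root of F. At these depths the common biological coefficient of variation was 2.81%. The variance between replicates, as a chi-square per degree of freedom, was 2.67 to 4.35 times that of counting alone. Exon GC content and length came from GENCODE 44 lifted to GRCh37 and covered 95.9% of genes tested. For the correction, a loess curve (span 0.5) was fitted in each library against GC content and then log2 exon length, and entered as an offset. Promoters came from RefSeq.

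The alternatives were DESeq2 1.42.0, upper-quartile scaling, fits of only the groups compared, a filter of 10 counts in every library, no filter, a replicate block, the correction with and without that block, the fold limit, each library left out in turn, and counts halved. The edgeR and DESeq2 steps were tested on simulated data for ketamine against vehicle, with planted changes past the fold limit and no relation to GC content. That test does not cover smaller changes or the correction. The 41 genes and the lists were chosen with earlier results of these data known. The rule for naming genes took HIF1A, EPAS1, SLC2A1, LDHA, PDK1, VEGFA and CA9 in each treatment, the genes with the largest called rise and fall in each treatment, and the genes past the fold limit in any comparison. From the lists of other pathways it took up to 3 genes per direction past that limit with a mean of at least 5 CPM. Other genes were named after their values were seen. No columns of the table were unassigned.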

Additional observations from a re-analysis of the deposited data

Results flagged for a closer look

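The test of a drug's effect with E2 against its effect without E2 (edgeR quasi-likelihood, Benjamini-Hochberg adjusted p under 0.05) was passed by 24 of the 41 genes for ketamine, beside 37.5% of all genes tested. For (2R,6R)-HNK it was passed by 34 genes, beside 56.6%, and with the GC correction 7 of these calls were lost and 7 turned to the opposite direction. For (2S,6S)-HNK it was passed by 36 genes, beside 65.1%, of which the correction lost 11 and turned 4. For ketamine it lost 5 and turned 0. Calls lost or turned were not counted over all genes tested, so these counts have no share to stand beside.

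CA9 passed this test for (2R,6R)-HNK with a log2 difference between the 2 effects of 1.46, or 1.82 with the correction. P4HA1 passed it for (2R,6R)-HNK with a difference of 1.32, or 0.91. SLC16A1 passed it for (2S,6S)-HNK with a difference of 1.03, or 0.63. LDHB passed it for (2S,6S)-HNK with a difference of 1.11, or 0.64. P4HA1 also passed it for (2S,6S)-HNK, with a difference of 1.53, or 0.85.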

How the results depend on the processing

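With a library left out, which leaves a lone sample assumed to vary like the other groups, all 104 counts of genes called kept within 1.5 times of those from 16 libraries. At most 5 calls were lost in any comparison. Of 296 single log2 fold changes, 289 kept their call and direction, 6 lost the call, and 1, CA9 with E2, reversed to 0.11 without replicate 2 of vehicle, beside -0.36 without replicate 1. With other settings 199 of 230 counts kept within 1.5 times and 31 moved, and of 621 single values 569 kept their call and direction. Counts halved and rounded up were tried after the data had been seen.

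With the GC and length correction the counts that moved were 3 higher and 25 lower with E2, 11 higher with (2R,6R)-HNK and 12 higher with E2+ketamine, and the replicate block added to the correction gave the same. With the fold limit edgeR counted 0 higher and 0 lower with E2, E2+(2S,6S)-HNK, ketamine and (2R,6R)-HNK, with 0 at an unadjusted p under 0.05 and 0 by DESeq2. The limit left 2 higher and 0 lower with (2S,6S)-HNK, 0 higher and 2 lower with E2+ketamine, and 2 higher and 1 lower with E2+(2R,6R)-HNK. Among pairs of drugs it left 0, except 1 for E2+ketamine against E2+(2R,6R)-HNK and 1 for E2+ketamine against E2+(2S,6S)-HNK, and among interactions 3 for (2S,6S)-HNK, 2 for (2R,6R)-HNK and 0 for ketamine.

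With the correction PDK1 reversed to 0.052 with E2, 0.12 with ketamine, 0.42 with (2R,6R)-HNK, 0.35 with (2S,6S)-HNK, 0.24 with E2+ketamine, 0.34 with E2+(2R,6R)-HNK and 0.13 with E2+(2S,6S)-HNK. PFKL reversed to -0.12 with E2, EPAS1 to -0.021 with (2R,6R)-HNK and -0.005 with E2+(2S,6S)-HNK, and CA9 to -0.073 with (2R,6R)-HNK. With the replicate block added to the correction, PDK1 was 0.051 with E2, 0.12 with ketamine, 0.42 with (2R,6R)-HNK, 0.35 with (2S,6S)-HNK, 0.24 with E2+ketamine, 0.34 with E2+(2R,6R)-HNK and 0.13 with E2+(2S,6S)-HNK. PFKL was -0.12 with E2, EPAS1 -0.021 with (2R,6R)-HNK and -0.004 with E2+(2S,6S)-HNK, and CA9 -0.062 with (2R,6R)-HNK. SLC2A1 with E2+(2S,6S)-HNK reversed to 0.05 under upper-quartile scaling and to 0.017 in a fit of only the groups compared. The cause was not tested.

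The replicate block, with replicates paired by number, took the count for ketamine against (2S,6S)-HNK from 31 to 29 and left the other counts as they were. Over 28 pairs of groups and 16004 genes, differences between replicates 1 and 2 correlated with r of -0.0258 to 0.0451, with a mean of -6.37e-05.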
